A study of Canis lupus familiaris with 32 samples.

Results

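CCL17 and CCL24 are chemokines, small secreted proteins that guide leukocytes into tissue, and both belong to the type 2 arm of immunity that acts in allergy. They were taken by name from the gene table that the authors deposited, where they are 2 of 17107 genes, and each was read from its own probe set, so that they make up 2 of the 42860 probe sets tested. The choice of these genes used no measured value of its own, but it was made with earlier results of these data known. For each gene, all 6 values of the authors' deposited table equalled those of that probe set and of no other. The CCL17 probe set carries the suffix for sets whose probes may also match other transcripts, and the CCL24 probe set does not.

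CCL17, also called TARC, binds the receptor CCR4 on type 2 helper T cells and skin-homing T cells, and its blood level is used in people as a marker of how severe atopic dermatitis is. CCL24, also called eotaxin-2, binds the receptor CCR3 on eosinophils, basophils and some type 2 T cells. In people and mice both genes are induced by the cytokines IL4 and IL13 through the transcription factor STAT6, in dendritic cells and keratinocytes for CCL17 and mainly in macrophages and other cells of tissue for CCL24.

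Skin was taken from 8 Maltese-beagle atopic dogs, 5 male and 3 female and between 5.5 and 10.5 years old, all sensitized through the skin to the house dust mite Dermatophagoides farinae. All had been selected because mite challenge gave them acute skin lesions, so neither non-atopic dogs nor dogs without a reaction are among them. Each dog gave 4 biopsies of the thorax: control skin 6 h after a patch of mineral oil, and mite-patched skin after 6 h, 24 h and 48 h. Total RNA of each biopsy was read on 1 array, which gives 32 arrays, 8 in each group. The control was taken at 6 h only, so the later comparisons differ from it in time as well as in allergen.

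Values are log2 signals as deposited, on which a step of 1 is a doubling of signal, and the median signal of an array lay between 4.64 and 4.91. Of 7 keratinocyte markers with a named probe set, 6 were above the array median on all 32 arrays, and the other was the transcription factor TP63, above it on 0. The biopsies differed in skeletal muscle: the mean signal of 8 muscle markers ranged from 3.39 to 7.82 among control biopsies, from 3.56 to 7.92 at 6 h, from 2.93 to 7.15 at 24 h and from 3.00 to 3.18 at 48 h. By this measure 9 arrays stood apart as rich in muscle, those of dogs 4 and 7 in control skin, of dogs 1, 2, 3, 5 and 6 at 6 h and of dogs 2 and 4 at 24 h. The gap between 3' and 5' probe sets of beta-actin, which widens when RNA is degraded, averaged 2.27 for control biopsies, 2.78 at 6 h, 2.08 at 24 h and 1.79 at 48 h, but with another 5' probe set it was 2.77, 2.70, 2.69 and 2.69. Results of both chemokines at 6 h are therefore also given without the muscle-rich arrays and with these measures in the fit. In whole biopsies a lower signal from fewer cells of a type and from less RNA per cell cannot be told apart.

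CCL17 was at the lower end of the array's range in control skin, and it was higher than there in all dogs at 24 h and at 48 h. In control skin its log2 signal lay between 3.77 (dog 2) and 4.30 (dog 6), with a median of 4.11, and on 0 of 8 arrays was it above the array median. At 6 h it lay between 3.90 (dog 8) and 6.40 (dog 2), with a median of 4.36, and 2 of 8 arrays, those of dogs 2 and 6, were above the array median. At 24 h it lay between 4.68 (dog 8) and 10.37 (dog 2), with a median of 7.52, and at 48 h between 5.51 (dog 3) and 12.46 (dog 6), with a median of 10.08. The 24 h and 48 h arrays were all above the highest control array, while the control and 6 h arrays overlapped. The spread between dogs widened along with the level: the SD went from 0.19 among control biopsies to 0.83 at 6 h, 1.96 at 24 h and 2.12 at 48 h.

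CCL24 was well within the array's range from the start and rose in smaller steps. Its control signals lay between 5.29 (dog 2) and 7.09 (dog 6), with a median of 5.69, and were above the array median in 8 of 8 dogs. At 6 h they lay between 5.92 (dog 1) and 8.14 (dog 6), with a median of 6.88. At 24 h they lay between 6.73 (dog 4) and 9.26 (dog 6), with a median of 7.60, and at 48 h between 7.55 (dog 3) and 9.70 (dog 6), with a median of 8.50. The 48 h arrays were all above the control arrays, but at 24 h the groups overlapped because the control signal of dog 6 exceeded the 24 h signals of dogs 4 and 8. The spread between dogs changed little, with an SD of 0.62 for the control biopsies, 0.70 at 6 h, 0.87 at 24 h and 0.74 at 48 h.

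**Figure D1:**
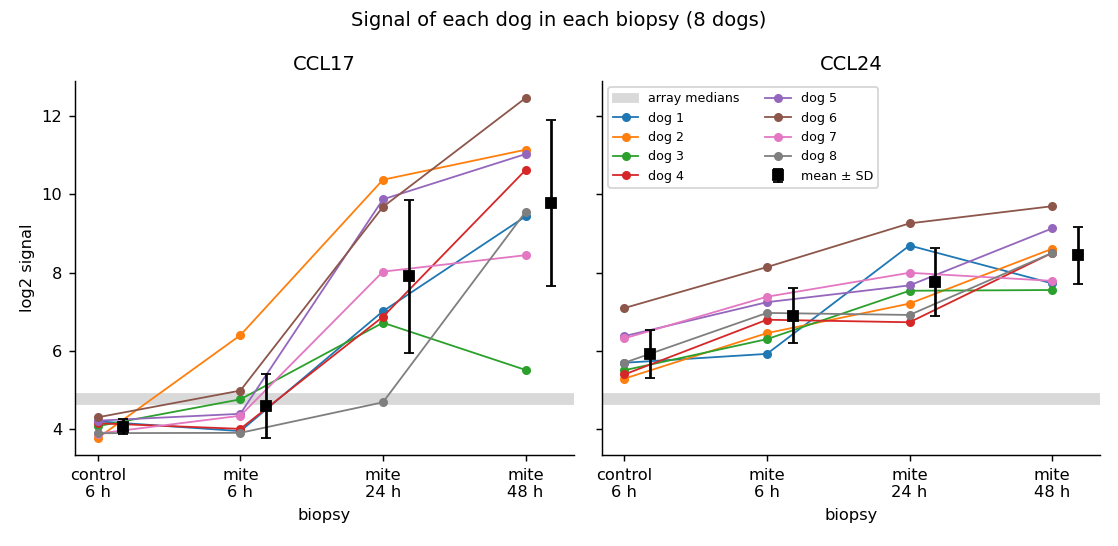
Log2 signal (vertical axis) of CCL17 and CCL24 in each biopsy (horizontal axis), with 1 coloured line per dog, black squares for the mean ± SD of 8 dogs and a grey band for the range of array medians. CCL17 starts at a mean of 4.06, below the band, and ends at 9.77 with dogs far apart, while CCL24 starts at 5.92, above the band, and ends at 8.44 with dogs closer together.

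At 6 h, CCL24 passed the test with the dog as a block and CCL17 did not. CCL24 was higher than in control skin in 8 of 8 dogs, by 0.98 on the log2 scale (SE 0.23, limma adjusted p = 0.0200), which is 1.97-fold. The smallest change was 0.23 in dog 1 and the largest 1.40 in dog 4. The background of rises at this time was low, at 0.275% of the probe sets tested, against 2.62% that fell. CCL17 differed by 0.53 (95% confidence interval -0.66 to 1.72, limma adjusted p = 0.719), and 6 of 8 dogs were higher. The change in dog 2 was 2.63, while the other dogs lay between -0.25 and 0.68, and that 6 h array is among those rich in muscle. The fit gives CCL17 a spread shared by all groups, and with the control and 6 h arrays alone the SE fell from 0.58 to 0.27 (limma adjusted p = 0.333). The CCL17 change at 6 h was 0.47 without the muscle-rich arrays, 0.52 with the muscle signal in the fit, 1.08 with the actin gap and 0.44 with the actin gap from the other 5' probe set, and passed in none of them (limma adjusted p = 1.000, 0.805, 0.670 and 0.746).

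The CCL24 call at 6 h depends on how the arrays are treated, while its change stayed between 0.92 and 1.43 in the alternatives run. Without the dog as a block the adjusted p was 0.177 in limma for the same change of 0.98. The authors' deposited table, whose model has no dog, gives CCL24 a fold of 2.0 at 6 h with an adjusted p of 0.226. Without the muscle-rich arrays, which leaves 3 arrays at 6 h and 6 in control skin, the change was 1.43, but 0 probe sets were called in limma (1835 had an unadjusted p under 0.05, CCL24 among them with an unadjusted p of 0.00101). With the actin gap in the fit the change was 1.14 (limma adjusted p = 0.293), with the actin gap from the other 5' probe set 1.02 (limma adjusted p = 0.0152), and with the muscle signal in the fit 1.10 (limma adjusted p = 0.0138). Leaving out dog 2, 3, 6 or 8 gave changes of 0.95, 1.01, 0.97 and 0.94 with limma adjusted p-values of 0.0569, 0.0675, 0.0579 and 0.0563.

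At 24 h both chemokines were higher than in control skin in 8 of 8 dogs. CCL17 rose by 3.84 (SE 0.58, limma adjusted p = 0.000189), the largest log2 rise of the 42860 probe sets, from a change of 0.79 in dog 8 to 6.60 in dog 2. No fold is given for CCL17 because its control signals lie below the array median, where a log2 difference depends on the background of the array, and its rank by size has the same limit at 24 h and 48 h. CCL24 rose by 1.83 (SE 0.23, limma adjusted p = 3.45e-05), or 3.56-fold, from 1.22 in dog 8 to 3.00 in dog 1, and its rise ranked 20th by size. On the array as a whole, 2.97% of probe sets were called higher and 5.22% lower at 24 h, and in 0.229% each 24 h array was above each control array, as for CCL17. Rises were thus 36.2% of the calls at 24 h, and 56.9% of them once each array was centred on its own median, while both chemokines were called either way.

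At 48 h the rise of CCL17 was 5.71 (SE 0.58, limma adjusted p = 1.97e-07), again the largest of the 42860 probe sets, and it ranged from 1.44 in dog 3 to 8.16 in dog 6. CCL24 rose by 2.52 (SE 0.23, limma adjusted p = 6.63e-08), or 5.73-fold, from 1.47 in dog 7 to 3.32 in dog 2, and ranked 38th by size. Both were higher in 8 of 8 dogs with no overlap between the 48 h and control arrays. Changes were common at this time, with 10.6% of probe sets called higher and 9.09% lower, and in 2.3% the 48 h arrays all lay above the control arrays. The 48 h arrays held little muscle signal, and without the muscle-rich arrays the rises were 5.74 for CCL17 and 2.56 for CCL24. The 24 h and 48 h calls against the control held for both genes in each of the 21 alternatives run, with changes at 48 h between 5.19 and 6.32 for CCL17 and between 2.33 and 2.67 for CCL24.

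The steps between the mite biopsies were tested in the same fit. From 6 h to 24 h, CCL17 rose in 8 of 8 dogs by 3.31 (limma adjusted p = 0.000404) and CCL24 in 6 of 8 by 0.85 (limma adjusted p = 0.0120), where 8.45% of probe sets were called higher (48.8% of all calls, and 68.3% after centring). CCL24 was all but level in dogs 4 and 8 at this step, with changes of -0.06 and -0.05. From 24 h to 48 h, neither gene passed: CCL17 differed by 1.87 (95% confidence interval 0.68 to 3.06, limma adjusted p = 0.0850, higher in 7 of 8 dogs) and CCL24 by 0.69 (95% confidence interval 0.22 to 1.16, limma adjusted p = 0.121, higher in 6 of 8), where 2.37% of probe sets were called higher. CCL17 passed without dog 3, with a change of 2.31 (limma adjusted p = 0.0148), and CCL24 passed without dog 1, with a change of 0.92 (limma adjusted p = 0.0218). Without the muscle-rich arrays the 6 h to 24 h changes were 3.28 for CCL17 (limma adjusted p = 0.218) and 0.64 for CCL24 (limma adjusted p = 0.507), with 0 probe sets called and 4835 at an unadjusted p under 0.05 in limma. Without the dog as a block the CCL24 step of 0.85 had a limma adjusted p of 0.101. In order of mean level both genes ran from control skin through 6 h and 24 h to 48 h, and the neighbours that did not differ beyond the test were control and 6 h for CCL17 and 24 h and 48 h for both.

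The same changes were tested over the 8 dogs alone by flipping signs within dogs, which does not borrow the spread of other groups. The smallest 2-sided p this exact permutation test can give is 0.0078, or 0.0130 after adjustment over the 10 tests. CCL17 reached it at 24 h and 48 h against the control and from 6 h to 24 h, and CCL24 at 6 h, 24 h and 48 h against the control. CCL24 from 6 h to 24 h had an adjusted p of 0.0446 in this exact test. CCL17 at 6 h (exact p = 0.0859), CCL17 from 24 h to 48 h (exact p = 0.0469, adjusted p = 0.0586) and CCL24 from 24 h to 48 h (exact p = 0.0859) did not pass.

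The changes of both genes were set side by side within each dog, and a difference in timing was not established. By the mean log2 change, CCL24 had made 38.9% of its 48 h rise at 6 h and 72.7% at 24 h, while CCL17 had made 9.29% at 6 h and 67.3% at 24 h, shares that carry no test. At 6 h the CCL17 change minus the CCL24 change averaged -0.45 ± 0.90 (SD, n = 8), and dog 2 was the only dog whose CCL17 change was the larger (exact permutation p = 0.203). At 24 h the difference was 2.01 ± 1.98, with CCL17 changing more in 6 of 8 dogs but not in dogs 1 and 8 (exact permutation p = 0.0391, adjusted p = 0.0586 over 3 tests). At 48 h it was 3.20 ± 1.76, with CCL17 changing more in 7 of 8 dogs and dog 3 at -0.61 (exact permutation p = 0.0156, adjusted p = 0.0469). Leaving out any of dogs 4, 5, 6 or 7 raised this adjusted p to 0.0938, and leaving out dog 2 lowered that at 6 h to 0.0469, with a difference of -0.72. These are differences of log2 signals, and probe sets can differ in how steeply they respond to RNA. The comparisons with the control share their 8 control arrays.

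**Figure D2:**
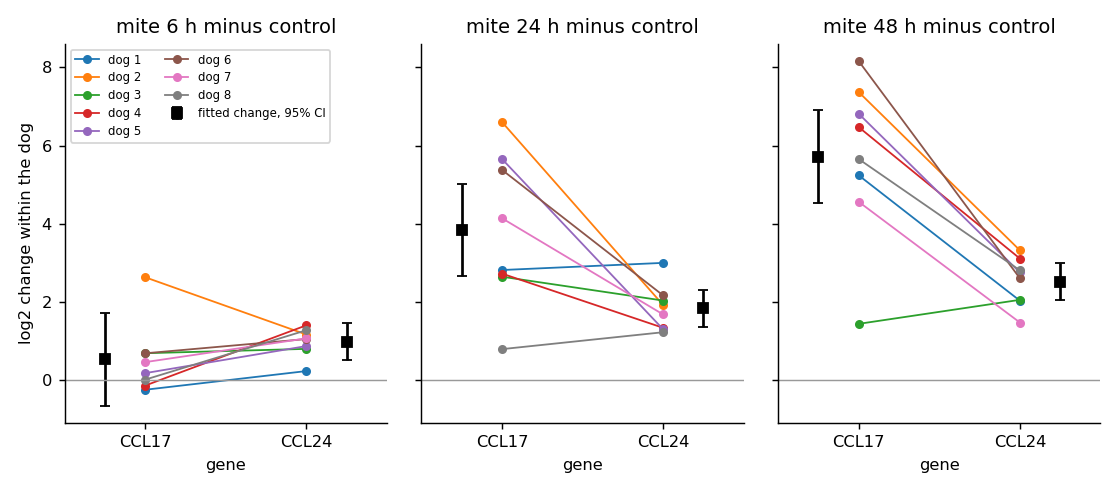
Log2 change from the dog's own control biopsy (vertical axis) of CCL17 and CCL24 (horizontal axis) at 6 h, 24 h and 48 h, with 1 line per dog and black squares for the fitted change with its 95% confidence interval. At 6 h the lines rise towards CCL24 in all dogs but dog 2, and at 48 h they fall towards CCL24 in all dogs but dog 3.

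Most of the variation of either gene lay between the biopsy groups, and the share between dogs was larger in CCL24. Of the sum of squares over 32 arrays, the groups accounted for 73.8% in CCL17 and 65.1% in CCL24, and the dogs for 12.1% in CCL17 and 22.9% in CCL24. Dog 6 had the highest CCL24 signal in all 4 groups, at 7.09, 8.14, 9.26 and 9.70. For CCL17, dog 2 had the lowest control signal, the highest at 6 h and 24 h, and the next highest at 48 h after dog 6. Across dogs, control and 6 h signals correlated at r = -0.40 for CCL17 and 0.86 for CCL24. Between 24 h and 48 h, r was 0.54 for CCL17 and 0.22 for CCL24. None of these passed an exact permutation test after adjustment. Which gene kept the levels of its dogs more was not tested.

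The course differed between single dogs. In dog 8 CCL17 lay at 3.89, 3.90 and 4.68 in the control, 6 h and 24 h biopsies and then at 9.55. That rise of 4.87 from 24 h to 48 h was the largest of the 8 dogs. Its CCL24 had changed by 1.27 at 6 h, where the largest change was 1.40 in dog 4. Dog 3 was the only dog in which CCL17 fell after 24 h, from 6.72 to 5.51. Dog 1 made most of its CCL24 rise between 6 h and 24 h, by 2.77 against at most 1.24 in the others, and then fell from 8.69 to 7.72. By the gap rule given under the flagged results, dogs 8 and 3 did not stand apart in these CCL17 values. Dog 1 did so in its CCL24 step from 6 h to 24 h.

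At 48 h the dogs stood in nearly the same order for both genes. Pearson's r between CCL17 and CCL24 over the 8 dogs was 0.858 (exact permutation p = 0.0055, adjusted p = 0.0538 over 16 relations) and Spearman's rho was 0.952 (exact permutation p = 0.00114, adjusted p = 0.0183). Without dogs 3 and 6, the farthest from the median of CCL17, r was 0.825. Among control biopsies r was 0.51 and rho 0.60, at 6 h they were 0.01 and 0.17, and at 24 h 0.37 and 0.38, and none of these passed an exact permutation test (adjusted p of r = 0.400, 0.985 and 0.590). Whether it differs between times was not tested. Of the other 12 relations, each gene between pairs of biopsies, none had an adjusted p under 0.05 in the exact permutation test, and the nearest was CCL24 in control skin with CCL24 at 6 h (r = 0.856, adjusted p = 0.0538, and 0.588 without dogs 5 and 6).

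**Figure D3:**
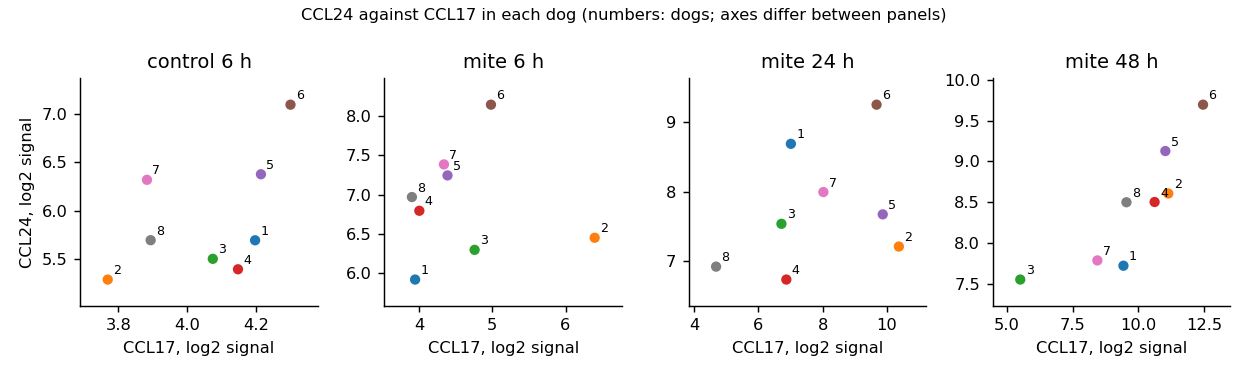
Log2 signal of CCL24 (vertical axes) against CCL17 (horizontal axes) in each biopsy group, with 1 numbered point per dog and axes that differ between panels. At 48 h the points run from dog 3, lowest in both, to dog 6, highest in both, while at 6 h dog 2 lies far to the right with a CCL24 signal of 6.45.

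CCL22, also called MDC, is the other known ligand of CCR4, and in the dog annotation UU_Cfam_GSD_1.0 it lies close to CCL17 with CX3CL1, an adhesive chemokine of endothelium, between them. CCL22 did not pass at any time in the fit of all dogs. Its signal lay between 4.81 and 5.51 in control skin, with a median of 5.25, and between 5.06 and 5.80 at 48 h, with a median of 5.43. It differed from control skin by 0.03, 0.02 and 0.21 at 6 h, 24 h and 48 h (SE 0.09, limma adjusted p = 0.913, 0.946 and 0.110), and was higher at 48 h in 8 of 8 dogs. CX3CL1 differed by -0.02, -0.11 and -0.17 and did not pass either (limma adjusted p = 0.930, 0.466 and 0.128). Of the 2 CCR4 ligands, CCL17 was the 1 that was called at 24 h and 48 h. When each dog was left out in turn, between 1 and 2 CCR4 ligands were called at 48 h. CCL17 was always among them, so CCL22 passed in at least 1 of these fits.

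Of the 7 CCR3 ligands looked for, 4 had a named probe set, and of these 1 rose at 6 h and 3 rose at 24 h and at 48 h. Of all 10512 named genes, 0.323%, 3.63% and 12.2% were called higher at these times. CCL24 was the 1 at 6 h. CCL5, or RANTES, which draws T cells and eosinophils, had a control median of 4.72 (4.34 to 5.19) and a 48 h median of 7.15 (5.11 to 9.07). It rose by 1.51 at 24 h (SE 0.35, limma adjusted p = 0.00738) and 2.27 at 48 h (limma adjusted p = 4.11e-05), each in 8 of 8 dogs. CCL13, or MCP-4, a ligand of CCR2 and CCR3, rose from a median of 6.54 (6.06 to 6.80) to 7.63 (6.86 to 8.13), by 0.95 at 24 h (SE 0.18, limma adjusted p = 0.00153) and 1.10 at 48 h (limma adjusted p = 7.79e-05), each in 8 of 8 dogs. CCL7, or MCP-3, differed by -0.20, 0.45 and 0.46 and did not pass (limma adjusted p = 0.798, 0.388 and 0.284).

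The remaining CCR3 ligands were read from the authors' deposited table, which gives signed folds without the dog in the model. In the authors' deposited table CCL8, or MCP-2, had folds of 1.2, 1.8 and 3.4 at 6 h, 24 h and 48 h, with adjusted p-values of 0.601, 0.01 and below 0.001. CCL26, or eotaxin-3, which neighbours CCL24 in the same annotation, had folds of -1.1, 1.3 and -1.0 there in the authors' deposited table (adjusted p = 0.839, 0.078 and 0.798). CCL11, the first eotaxin, was not analysed here.

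The receptors were dim. CCR4, the receptor of CCL17, lay between 2.92 and 3.84 and below the array median on all 32 arrays, and differed from control skin by 0.20, 0.06 and 0.20 (SE 0.08, limma adjusted p = 0.202, 0.757 and 0.080). CCR8, another receptor of type 2 T cells, was also below the array median on all 32 arrays and differed by at most 0.15 (limma adjusted p = 0.306 at 48 h). For CCR3, the receptor of CCL24, the authors' deposited table gives folds of 1.5, 1.7 and 2.4 (adjusted p = 0.698, 0.51 and below 0.001). CCR6 rose by 0.50 at 48 h (limma adjusted p = 0.000492), and CCR7, the lymph node homing receptor of dendritic and T cells, rose by 0.24 (limma adjusted p = 0.0125), a call that was lost when the muscle-rich arrays or dog 2 were left out. Of the 4 receptors with a named probe set, none passed at 6 h or 24 h and 2 rose at 48 h, where 12.2% of all named genes rose.

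**Figure D4:**
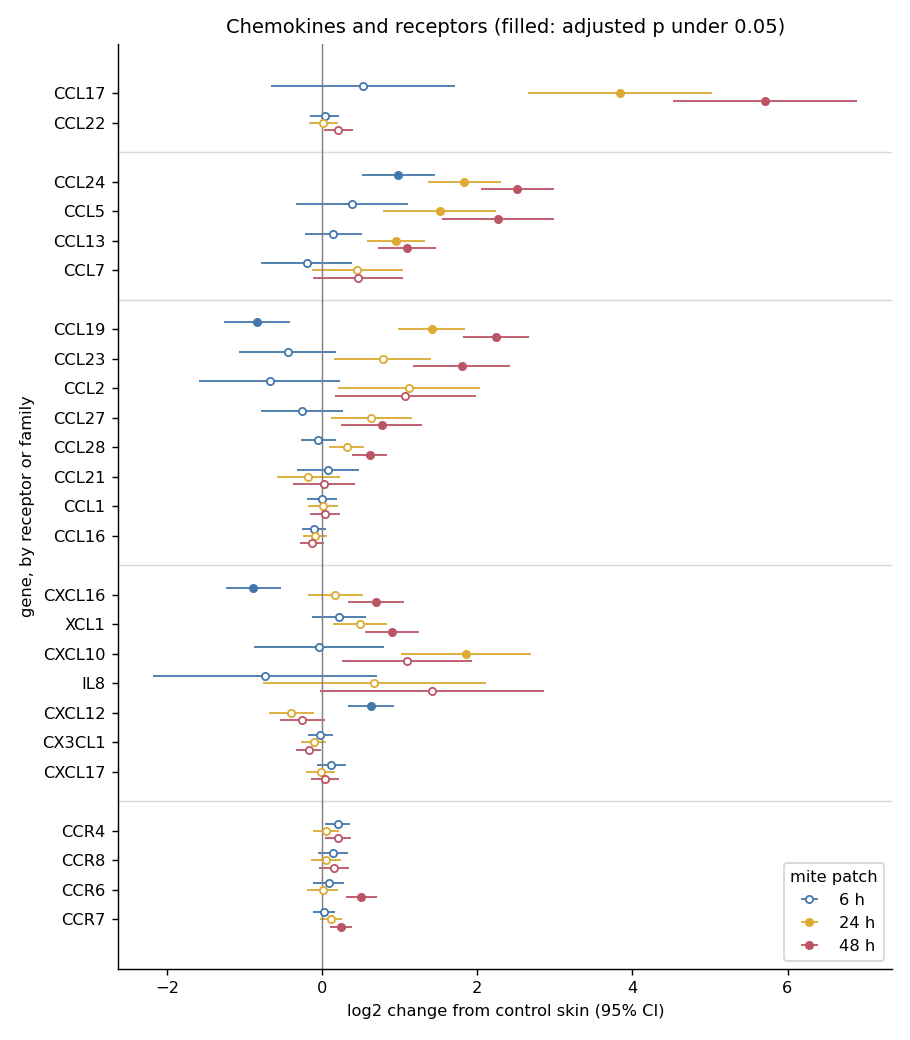
Fitted log2 change from control skin (horizontal axis) with its 95% confidence interval, at 6 h, 24 h and 48 h, for each chemokine and receptor with a named probe set (vertical axis, in groups: CCR4 ligands, CCR3 ligands, other CC chemokines, CXC, CX3C and XC chemokines, receptors), filled where the adjusted p was under 0.05. CCL17 stands farthest to the right at 24 h and 48 h, at 3.84 and 5.71, and CCL22 beneath it stays near 0.

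Of the other 8 CC chemokines with a named probe set, 1 fell at 6 h, 1 rose at 24 h and 4 rose at 48 h. Of all named genes, 4.08% fell at 6 h, and 3.63% and 12.2% rose at 24 h and 48 h. CCL19, a ligand of CCR7, fell by 0.84 at 6 h (limma adjusted p = 0.0272), a call held in 12 of 21 alternatives, and rose by 1.41 at 24 h (limma adjusted p = 0.000157) and 2.25 at 48 h (limma adjusted p = 8.31e-08). CCL23 rose by 1.80 at 48 h (limma adjusted p = 0.000108) and CCL28, an epithelial chemokine, by 0.61 (limma adjusted p = 0.000221). The fourth was CCL27, a keratinocyte chemokine for skin-homing T cells, at 0.77 (limma adjusted p = 0.0338), whose call was kept in 12 of 21 alternatives. The median change of these 8 was -0.19, 0.48 and 0.69 at 6 h, 24 h and 48 h, where the median of all probe sets was 0.01, -0.03 and -0.02. Of 7 CXC, CX3C and XC chemokines, CXCL12 rose (0.63, limma adjusted p = 0.0161) and CXCL16 fell (-0.89, limma adjusted p = 0.00645) at 6 h, calls held in 14 and 19 of 21 alternatives. CXCL10, a chemokine induced by interferon, rose by 1.86 at 24 h (limma adjusted p = 0.00490), and XCL1 by 0.90 (limma adjusted p = 0.000340) and CXCL16 by 0.70 (limma adjusted p = 0.00483, lost with the actin gap in the fit) at 48 h.

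The type 2 cytokines, the alarmins of epithelium and their receptors were followed beside the chemokines. Of 21 such genes 14 had a named probe set, and 0 passed at 6 h in limma (0 rose and 0 fell), 4 rose at 24 h and 6 at 48 h, while 0.323%, 3.63% and 12.2% of all 10512 named genes were called higher and 4.08%, 7.22% and 10.9% lower. Their median change was -0.01, 0.33 and 0.24. IL13, an inducer of both chemokines in people and mice, had control signals of 3.44 to 3.99 with a median of 3.76, and 48 h signals of 4.77 to 7.71 with a median of 6.16. It rose by 1.65 at 24 h (SE 0.29, limma adjusted p = 0.000873) and 2.48 at 48 h (limma adjusted p = 1.42e-06), each in 8 of 8 dogs, and differed by 0.72 at 6 h (limma adjusted p = 0.202). IL13RA2, a decoy receptor that takes up IL13, rose by 2.58 at 24 h in 7 of 8 dogs and by 4.00 at 48 h in 8 of 8 (limma adjusted p = 8.23e-05 and 5.85e-08).

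IL4 was dim, below the array median on all 32 arrays, with a control median of 2.27 (2.14 to 2.44) and a 48 h median of 2.99 (2.45 to 3.54). It rose by 0.72 at 48 h (limma adjusted p = 0.000364), in 8 of 8 dogs. IL5, the growth factor of eosinophils, was dim too, below the array median on all 32 arrays with signals of at most 3.62. It rose by 0.45 at 24 h (limma adjusted p = 0.0111, lost without the muscle-rich arrays) and 0.53 at 48 h (limma adjusted p = 0.00109). IL33, an alarmin of keratinocytes and endothelium, rose by 1.37 at 48 h (limma adjusted p = 0.000183). IL4R, a shared receptor chain of IL4 and IL13, differed by at most 0.07 in either direction (limma adjusted p = 0.610 at 48 h). For IL13RA1 the authors' deposited table gives folds of -1.6, 1.2 and 1.6 at 6 h, 24 h and 48 h (adjusted p = 0.01, 0.394 and below 0.001).

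Of 24 genes of the STAT6 pathway or known in people or mice to be induced by type 2 cytokines, 16 had a named probe set. None passed at 6 h in limma, 5 rose and 1 fell at 24 h, and 8 rose and 2 fell at 48 h, with a median change of -0.05, 0.18 and 0.25. Of all named genes, 3.63% rose and 7.22% fell at 24 h, and 12.2% rose and 10.9% fell at 48 h. At 48 h the smallest p-values among the rises were those of CD209, a lectin of dendritic cells and macrophages (2.40, limma adjusted p = 1.47e-07) and of POSTN, or periostin, a matrix protein (2.02, limma adjusted p = 1.28e-05). TNC, the matrix protein tenascin C, fell by 0.88 at 24 h and 1.20 at 48 h (limma adjusted p = 0.000358 and 1.13e-06). For STAT6 itself the authors' deposited table gives folds of -1.2, -1.0 and -1.0 (adjusted p = 0.249, 0.927 and 0.953). For JAK1 it gives folds of -1.6, -1.4 and -1.2 at 6 h, 24 h and 48 h (adjusted p = 0.006, 0.015 and 0.124).

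Markers of some of the cells known to make or to follow these chemokines moved in the same biopsies, while few keratinocyte or eosinophil markers were called. The part of any of these cells in the rise of CCL17 and CCL24 was not tested. The shares of all 10512 named genes called higher were 0.323%, 3.63% and 12.2% at 6 h, 24 h and 48 h. Those called lower were 4.08%, 7.22% and 10.9%, and both stand beside each marker count below. Of 15 named dendritic cell markers, none passed at 6 h, 3 rose at 24 h and 12 at 48 h, and their mean signal ranged from 4.17 to 4.40 among control biopsies, 4.11 to 4.54 at 6 h, 4.32 to 5.14 at 24 h and 4.74 to 5.72 at 48 h. CD1B, CD1C, CCR7, IRF8, CLEC9A and XCR1 were below the array median on all 32 arrays, and BATF3, a transcription factor of dendritic cells, rose by 1.85 at 24 h and 2.28 at 48 h (limma adjusted p = 0.000166 and 1.73e-06). Of 8 named macrophage and monocyte markers, 1 fell at 6 h, 1 rose at 24 h and 7 rose at 48 h, and their mean ranged from 5.48 to 6.36, 5.47 to 6.38, 5.87 to 6.91 and 6.59 to 7.27 in the same order of groups. AIF1, a macrophage protein, rose by 1.84 at 48 h (limma adjusted p = 3.24e-06).

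Of 7 named T cell markers, none passed at 6 h, 1 rose at 24 h and 5 rose at 48 h, and their mean ranged from 3.78 to 4.19, 3.94 to 4.39, 4.05 to 5.08 and 4.41 to 5.89 in control, 6 h, 24 h and 48 h skin. CD3D, which carries the T cell receptor's signal, rose by 1.54 at 24 h (limma adjusted p = 0.000782) and 2.93 at 48 h (limma adjusted p = 8.31e-08). Of 4 named eosinophil markers, the cells CCL24 is known to attract, 0 were called in limma at 6 h and 24 h and 1 at 48 h, and their mean ranged from 3.42 to 3.69, 3.53 to 3.87, 3.58 to 3.92 and 3.52 to 3.91. EPX, the eosinophil peroxidase, was below the array median on all 32 arrays and differed by 0.06 at 48 h (SE 0.08, limma adjusted p = 0.689), as IL5RA and ALOX15 were below it on all arrays. ALOX15 was the 1 call, at 0.32 (limma adjusted p = 0.0489), kept in 8 of the 20 alternatives in which it was tested. CCR3 and GATA1, also on the eosinophil list, had 48 h folds of 2.4 and 1.3 in the authors' deposited table (adjusted p below 0.001 and 0.054).

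Of 4 named mast cell markers, 1 rose and 1 fell at 24 h, and 2 rose and 1 fell at 48 h. CPA3, a mast cell protease, rose by 0.84 and 1.38 (limma adjusted p = 0.0272 and 0.000135), and KIT, the receptor of stem cell factor, fell by 0.41 and 0.38 (limma adjusted p = 0.0136 and 0.0115). Without the dog as a block the KIT calls at both times and the CPA3 call at 24 h were lost. The authors' deposited table, whose model has no dog, gives adjusted p-values of 0.159 and 0.126 for KIT and 0.117 for CPA3 at 24 h. Of others on the mast cell list, it gives 48 h folds of 4.2 for FCER1A, 3.0 for MS4A2 and 3.1 for CMA1. Each of these had an adjusted p below 0.001 there, while HPGDS had a fold of -1.1 (adjusted p = 0.206). Of 7 named keratinocyte markers, 1 fell at 6 h, none passed at 24 h and 1 fell at 48 h, while 4.08% and 10.9% of all named genes fell at 6 h and 48 h. Of 6 named neutrophil markers 2 fell at 6 h, 2 rose at 24 h and 3 rose at 48 h, all of them S100 alarmins that activated keratinocytes make too, and MMP8, MPO and ELANE were below the array median on all 32 arrays. Also on the neutrophil list, MMP9 and LTF had 48 h folds of 2.8 and 1.6 in the authors' deposited table (adjusted p = 0.007 and 0.018). CSF3R had a 48 h fold of -1.1 there (adjusted p = 0.073). Which cells gave these signals was not tested.

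Markers of the structural cells of skin moved too, some of them against the chemokines, and their part in the rise of CCL17 and CCL24 was not tested either. Of all named genes, 3.63% rose and 7.22% fell at 24 h, and 12.2% rose and 10.9% fell at 48 h. Of 6 named adipocyte markers none passed at 6 h and 5 fell at 24 h and at 48 h, with a median change of -1.13 and -1.56, and their mean signal ranged from 9.04 to 10.23 among control biopsies, 8.93 to 10.30 at 6 h, 8.30 to 9.19 at 24 h and 7.23 to 8.95 at 48 h. Of 5 named fibroblast markers none passed at 6 h, 4 fell at 24 h and 1 fell at 48 h, with mean signals of 8.14 to 8.53, 8.27 to 9.01, 7.43 to 8.11 and 7.91 to 8.46 in the same order of groups. Of 6 named endothelial markers none passed at 6 h, 3 rose and 1 fell at 24 h, and 4 rose and 1 fell at 48 h, with mean signals of 6.72 to 7.49, 6.38 to 7.76, 6.86 to 7.68 and 7.18 to 7.86. The rises at 24 h were those of SELE, SELP and ICAM1, joined by VWF at 48 h, and PECAM1 fell at both times. On the same list, the authors' deposited table gives EMCN folds of -1.8 and -1.9 at 24 h and 48 h (adjusted p = 0.01 and below 0.001). TEK had -1.7 and -1.6 there (adjusted p = 0.018 and 0.011), and PLVAP had 1.0 and 1.2 (adjusted p = 0.833 and 0.026).

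The named genes whose course over the 32 arrays was most like that of CCL17, by Pearson's correlation of log2 signals after each dog's mean was removed, were CTSC (0.953), IL9 (0.947), IL13RA2 (0.943) and GPR171 (0.943), among 10510 genes compared. CTSC, or cathepsin C, a protease that activates the granule proteases of leukocytes, rose by 0.92 at 24 h and 1.89 at 48 h (limma adjusted p = 0.00370 and 2.40e-07). IL9, a T cell cytokine that acts on mast cells, rose by 1.83 and 3.31 (limma adjusted p = 0.0225 and 3.22e-05), its 24 h call held in 14 of 20 alternatives. GPR171, a receptor of lymphocytes, rose by 1.84 and 2.95. For CCL24 they were NIT1 (0.919), FCGR3A (0.893), NLRP10 (0.889), CD200R1 (0.879) and AP2S1 (0.878). NIT1, an amidase, rose by 0.52 at 24 h and 0.75 at 48 h (limma adjusted p = 0.000123 and 1.60e-07), and FCGR3A, an IgG receptor of macrophages and killer cells, by 1.34 and 2.64 (limma adjusted p = 0.000516 and 4.00e-08). The arrays share the same 8 dogs and 4 groups, so these correlations mainly follow the group means.

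CCL17 and CCL24 correlated with each other at 0.854 by this measure, which placed CCL24 110th for CCL17 and CCL17 22nd for CCL24. With the group means removed as well, which leaves how each dog departs from the common course, the value was 0.311, and CCL24 was 728th for CCL17. By that measure the genes most like CCL17 were IL9 (0.846), CTSC (0.812) and CCL5 (0.788), and of these IL9 and CTSC were also among those above. Those most like CCL24 were RFWD2 (0.666), SPO11 (0.658), HNRPDL (0.643), METTL9 (0.637) and SREK1IP1 (0.631), and 0 of these 5 were among its 5 above. Of the latter 5, METTL9 differed from control skin by 0.20 at 48 h (limma adjusted p = 0.0190), and the other 4 were not called at any time. By either measure these are the highest of 10510 correlations over the same arrays. How high the top ones would reach by chance was not tested.

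**Figure D5:**
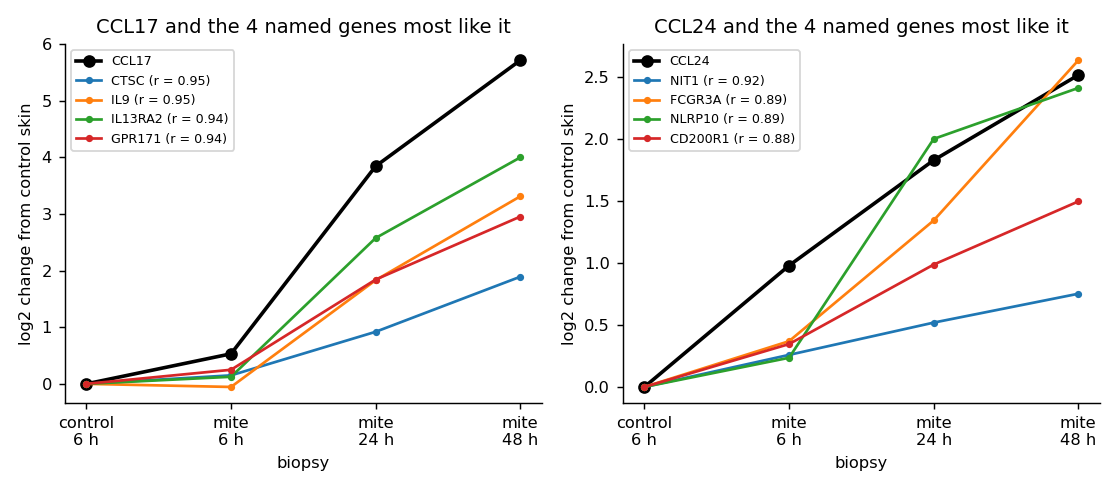
Fitted log2 change from control skin (vertical axis) in each biopsy (horizontal axis) of CCL17, CCL24 and the 4 named genes most like each, with Pearson's r over 32 arrays after each dog's mean was removed. The genes most like CCL17 stay near 0 at 6 h and rise at 24 h and 48 h by less than CCL17, and CCL24, at 0.98, is above its 4 at 6 h.

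Single biopsies of dogs 8, 3 and 2 were also looked at gene by gene. In dog 8 at 24 h, where CCL17 was the lowest of the 8 dogs at 4.68, IL9 (2.85), CCL5 (4.95), CTSC (8.46), GPR171 (4.91), IL13 (4.17) and IL13RA2 (4.52) were each the lowest too. In dog 3 at 48 h, where CCL17 was the lowest at 5.51, IL9 (2.83), CCL5 (5.11), GPR171 (6.07) and IL13 (4.77) were also the lowest. CTSC, the gene most like CCL17, was 9.74 in that biopsy and higher than in dog 7, IL13RA2 was 8.28, the fourth highest, and IL33 was 9.16, the highest of the 8 dogs. From 24 h to 48 h in dog 3, CCL5 went from 6.34 to 5.11 and IL9 from 3.32 to 2.83, lower as CCL17 was, while CTSC went from 9.15 to 9.74 and IL13RA2 from 6.85 to 8.28. In dog 2 at 6 h, where CCL17 was 6.40, IL4 (3.63) and GPR171 (5.75) were the highest of the 8 dogs and IL13 was 4.95, the next highest after 6.33 in dog 7, whose CCL17 was 4.34. These biopsies and the genes set beside CCL17 in them were chosen after their values were seen, and a single biopsy carries no test. IL9, CTSC, GPR171, IL13RA2 and CCL5 were, moreover, picked above as most like CCL17 over these same arrays. Low values of theirs where CCL17 was low were thus partly built into the choice.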

How the data were processed

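Biotin-labelled cDNA from 32 skin biopsies was hybridised to 1 array each. The values that the authors deposited are log2 signals per probe set, while their normalization, the chip model and the build were not given in the sources used here. In the authors' gene table are, per the file headers, signed folds against the 6 h control (used as a score with no values between -1 and 1) and their FDR adjusted p-values, and other entries deposited as text below 0.001.

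Groups came from the labels. Of 43035 probe sets, 175 array controls were left out and 42860 tested in 1 limma fit (limma 3.58.1, R 4.3.3; lmFit and eBayes, 4 groups, the dog as a block, 21 residual degrees of freedom), with p-values adjusted by Benjamini-Hochberg over all of them and called under 0.05. The block rests on the labels, by which same-numbered samples come from the same animal. Over 48 such pairs the deviations from group means correlated at 0.16 on average, from -0.46 to 0.70, and 33 exceeded 0.1. The number of arrays limits the precision. Exact permutation tests and correlations were made with scipy 1.17.1 and numpy 2.4.6 in Python 3.11.15, and the fit was tested on simulated data.

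The value table names no genes. A gene was linked to a probe set where an ordinary linear model gave its 3 folds within 0.05 and its 3 p-values within 0.001 in exactly 1 probe set, which named 10512 of 17107 genes (61.4%). Both members, the gene lists and the tests were chosen with earlier results of these data known. Named genes were the members, listed CCR4 and CCR3 ligands, receptors and type 2 cytokines, the 5 genes most like each member by either measure (some not reported here), and up to 3 called genes of each other list with the smallest p at 48 h. Genes behind counts of 5 or fewer, such as CCL27, were named after their values were seen. Alternatives changed the block, groups fitted, scaling, dim probe sets, variance model, muscle-rich arrays, covariates and dogs.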

Additional observations from a re-analysis of the deposited data

Results flagged for a closer look

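In a group of 8 a dog was taken to stand apart when its gap to the next dog, as a share of the group's whole range, exceeded Dixon's 95% critical value, which chance gives in about 1 in 20 groups, and 36 highest or lowest values were looked at. At 6 h dog 2 stood apart in CCL17, at a level of 6.40 and a change from its control of 2.63. That biopsy is among the 9 rich in muscle. Without that array the mean CCL17 change at 6 h was 0.44 (limma adjusted p = 0.782), and without dog 2 altogether it was 0.23. From 6 h to 24 h dog 1 stood apart in CCL24, with a change of 2.77, and without dog 1 the mean change was 0.58 (limma adjusted p = 0.0470).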

How the results depend on the processing

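The 24 h and 48 h rises of both chemokines against the control kept their direction and call in 21 of 21 alternatives, and no result reversed. CCL24 at 6 h lost its call with no replicate block (0.98, adjusted p = 0.177), with the replicate block as a random effect (0.98, 0.0807), without muscle-rich arrays (1.43) and with the actin covariate (1.14). CCL24 from 6 h to 24 h lost it with no block (0.85), a random block (0.85), 2 groups only (0.85), without muscle-rich arrays (0.64) and with the muscle (0.65) or actin covariate (0.63). CCL17 from 6 h to 24 h lost it without muscle-rich arrays (3.28) and with actin (2.55). The CCL17 minus CCL24 difference at 48 h was 3.19 over the 6 dogs left without muscle-rich arrays (exact p = 0.0625). This p is unadjusted, as 48 h alone had enough dogs left for the test. The cause of these moves was not tested, apart from the fewer arrays or dogs left.

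At 6 h 1239 probe sets were called, against 469 with no block, 0 without muscle-rich arrays, 544 with the muscle covariate, 0 with actin (4007 at an unadjusted p under 0.05 in limma) and 1915 when dog 5 lacked its 24 h array. At 24 h 3509 became 2160 with no block and 2325 without muscle-rich arrays, and at 48 h 8438 became 5448 with actin. From 6 h to 24 h 7416 became 4696 with 2 groups, 0 without muscle-rich arrays, 3452 with muscle and 487 with actin. From 24 h to 48 h 1096 became 463 with no block, 433 with 2 groups, 207 without muscle-rich arrays, 314 with actin and 636 when dog 5 lacked its 24 h array. Of all listed genes, 8 were called at 6 h, against 1 with no block, 5 with a random block, 5 with 2 groups, 0 without muscle-rich arrays, 3 with muscle and 0 with actin. From 6 h to 24 h 51 became 0, 33 and 5 in the last 3 settings. From 24 h to 48 h 20 became 11 with no block, 12 with 2 groups, 13 without dim probe sets, 4 without muscle-rich arrays and 3 with actin.

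Leaving out each dog in turn gave ranges, in the order 6 h, 24 h and 48 h against control, 24 h against 6 h and 48 h against 24 h. They were 0.23 to 0.64, 3.45 to 4.28, 5.36 to 6.32, 3.00 to 3.67 and 1.44 to 2.31 for CCL17, and 0.92 to 1.09, 1.66 to 1.92, 2.40 to 2.67, 0.58 to 0.98 and 0.53 to 0.92 for CCL24. Probe sets called were 283 to 1878, 2131 to 3278, 6758 to 7940, 4378 to 7618 and 247 to 1627, and listed genes called 1 to 12, 26 to 42, 64 to 69, 44 to 53 and 5 to 27. The CCL17 minus CCL24 difference was -0.72 to -0.29, 1.63 to 2.36 and 2.86 to 3.74 at 6 h, 24 h and 48 h. At 24 h it passed without dog 1 or dog 8 (exact adjusted p = 0.0469). Of 1890 counts per list, 1532 stayed within 1.5 times. Naming probe sets by a platform annotation or by the highest mean was not run.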
